A study of Homo sapiens with 2 samples.

Results

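The genes described here encode the cap'n'collar (CNC) transcription factors, the BACH factors and the adaptor KEAP1. The 7 genes are NFE2, NFE2L1, NFE2L2, NFE2L3, BACH1, BACH2 and KEAP1. A peak of NRF1 binding was counted for one of these 7 genes when its centre lay within 50 kb of any transcription start site (TSS) of the gene. This rule gave 13 of the 5683 peaks in the list, and they lay at 6 of the 7 genes. The study's own site list was held here in part, and that part gave no peak for these genes outside the 13. How many peaks were compared was not counted, so this is no measure of agreement. NRF1 stands here for the protein encoded by NFE2L1, not for nuclear respiratory factor 1, which has the same abbreviation.

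NRF1 was immunoprecipitated in 1 library from HCT116, a human colorectal carcinoma line, after exposure to the proteasome inhibitor MG132 at 1 µM for 16 h. No library of untreated cells was analysed, so every peak describes cells with an inhibited proteasome. The input library, made from cells that had received the same MG132 treatment, was not analysed here. With 1 library there are no replicates and no test, and the number of reads behind a peak is unknown.

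CNC factors are basic leucine zipper proteins that bind the antioxidant response element (ARE) as heterodimers with small MAF proteins. NRF1 is held in the endoplasmic reticulum and degraded until the proteasome fails, whereupon it is processed and activates proteasome genes. NRF2, encoded by NFE2L2, drives antioxidant and detoxifying genes, and KEAP1 is the adaptor that hands NRF2 to a CUL3 ubiquitin ligase. BACH1 and BACH2 also pair with small MAF proteins and repress genes with AREs, BACH1 in a heme-sensitive manner and BACH2 mainly known from lymphocytes. NFE2 is the p45 subunit of the erythroid factor NF-E2, and NFE2L3 encodes NRF3. Each of the 13 peaks is a place where NRF1 binding was called within 50 kb of a TSS of one of these genes. The gene may encode NRF1 itself, a relative, a competitor or the inhibitor of a relative. For 5 of the 13 peaks the nearest TSS of any gene was that of one of the 7.

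The sequences below are all the full AREs in the peaks and 1 site from each of 4 peaks without one, and they show how the sites at these genes differ. All are hg19 sequence, written 5′ to 3′ on the strand that carries the ARE, with the ARE in capitals and 10 bases on either side. A full ARE is TGACTCAGC or TGAGTCAGC, which holds the AP-1 core TGACTCA or TGAGTCA, and an ARE of any form is TGACNNNGC or TGAGNNNGC. Both strands were searched, and every full ARE is also an ARE of any form. The first 7 are all the full AREs in the 13 peaks.
NFE2L1, 45.5 kb upstream: tggctgactaTGAGTCAGCaatacagtgc
BACH1, 7.6 kb upstream: agggcagttaTGAGTCAGCaataatgttg
BACH1, 5.9 kb upstream: gatctggaggTGAGTCAGCaagcttggct
BACH1 promoter, first site: aggctcccggTGAGTCAGCttggagtagg
BACH1 promoter, second site: ctggggcgaaTGACTCAGCaacccaactt
BACH2, intron 4: tagtccagcaTGACTCAGCgagtttggag
BACH2, intron 1: aacagctgcaTGAGTCAGCaagcactgct
The next 4 come from peaks without a full ARE. In KEAP1, NFE2L3 and NFE2L2 they are AREs of another form, chosen as the site with the fewest differences from a full ARE and, among equals, the one nearest to the centre. They are not always the ARE nearest to the centre, and the KEAP1 and NFE2L2 peaks hold further AREs described with the genes. In BACH2 the capitals are an AP-1 core whose following bases are not GC.
KEAP1 promoter: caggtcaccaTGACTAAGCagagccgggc
NFE2L3: tttacttggaTGACACAGCagtttaaagt
NFE2L2 promoter: gagagatggaTGACTTCGCaaagccgcgc
BACH2, weakest peak: ccgatacgaaTGACTCATCagtatcaata

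Peaks at the starts of these genes were common. A peak centre within 2 kb of a TSS was found at 5 of the 7 genes, KEAP1, NFE2L2, NFE2L1, BACH1 and NFE2L3. Among 20163 protein-coding genes 1215 had such a peak, which is 6.03% (95% Wilson interval 5.71 to 6.36%). The intervals given for shares cover counting error only. The 7 genes were chosen with earlier results of these data known, so the counts beside these shares are a description only. Within 50 kb the count was 6 of 7, against 6591 protein-coding genes or 32.7% (32.0 to 33.3%). BACH1, BACH2 and KEAP1 had 3 peaks each within 50 kb, and 482 protein-coding genes (2.39%, 2.19 to 2.61%) had 3 or more. The nearest peak lay 70 bp from a TSS of KEAP1, 138 bp from one of NFE2L2, 143 bp from one of NFE2L3, 166 bp from one of BACH1 and 424 bp from one of NFE2L1. It was 8634 bp away at BACH2 and 75562 bp away at NFE2. The median over all protein-coding genes was 105248 bp, and all 7 genes lay nearer to a peak than that. These genes differ in how many start sites are annotated, from 3 for NFE2L3 to 44 for NFE2L2, and a gene with more start sites has more chances to meet the rule.

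**Figure D1:**
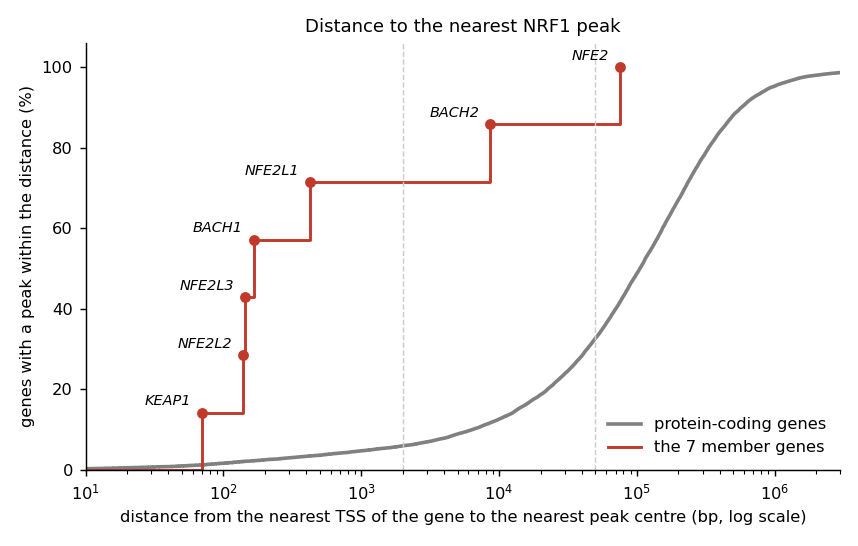
Share of genes (%) with an NRF1 peak centre within a given distance of their nearest TSS (bp, log scale), for protein-coding genes (grey) and for the 7 genes (red steps, 1 circle per gene). Dashed lines stand at 2 kb and 50 kb. The circles of 5 genes lie between 70 and 424 bp, BACH2 follows at 8634 bp and NFE2 at 75562 bp.

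The 13 peaks were not uniformly strong. The score is the value MACS gave to each peak (−log10 of its p-value, multiplied by 10), and it serves here to rank peaks within the list. The median score of the 13 peaks was 78.15, below the 91.86 of the whole list, and 5 of the 13 lay above that value. The 5 peaks within 2 kb of a TSS had a median of 220.44 and the other 8 a median of 71.15. Over the whole list the medians were 96.99 within 2 kb of any TSS and 90.11 farther away. Of the 5, those of BACH1 (78.15) and NFE2L3 (66.71) lay below the median of the whole list. The strongest of the 13 were those at the starts of KEAP1 (rank 61) and NFE2L2 (rank 151). Both NFE2L1 peaks (ranks 338 and 771) and the BACH2 peak in intron 4 (rank 1228) followed. The remaining 8 lay between ranks 3028 and 5681.

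**Figure D2:**
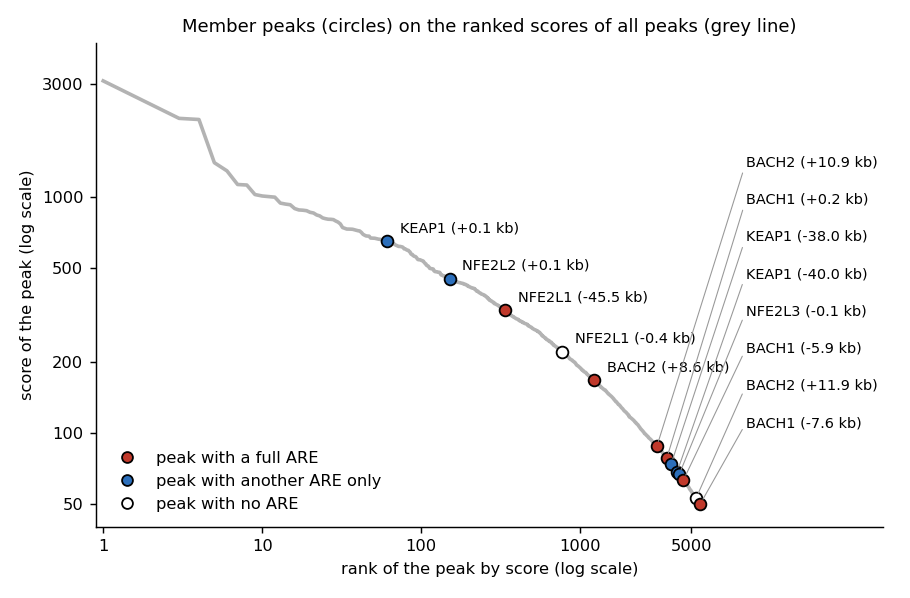
Score of each peak (log scale) against its rank by score (log scale) for all peaks (grey line), with the 13 peaks at the CNC, BACH and KEAP1 genes as circles. Labels give the gene and the distance to its nearest TSS, and colours give the ARE form (red, full ARE; blue, another ARE only; white, none). The 5 peaks with scores from 648.88 to 166.98 stand apart from the 8 with scores of 87.58 or less.

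NFE2L1, the gene of the immunoprecipitated factor itself, had a peak at its start and a stronger one far upstream. Its annotated span is chr17:46125691-46138907, plus strand. The promoter peak (chr17:46124882-46125653) scored 220.44 and its centre lay 424 bp upstream of the first TSS, that of NFE2L1-209. The nearest start of any gene was that of the divergent noncoding transcript NFE2L1-DT, 193 bp away. This peak held no ARE of any form and no site within 1 base of a full ARE. Among the 715 peaks without any ARE, whose median score was 71.76, it was the 27th highest. Its central 101 bases, shown because the peak scored high without an ARE, run from 46125217 to 46125317 on the plus strand.
NFE2L1 promoter peak centre: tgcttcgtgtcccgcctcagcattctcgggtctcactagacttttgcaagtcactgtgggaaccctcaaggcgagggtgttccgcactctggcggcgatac

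The upstream NFE2L1 peak (chr17:46079779-46080573) scored 330.06, more than the promoter peak, and its centre lay 45515 bp before the first TSS. Other start sites were closer, that of an unnamed long noncoding RNA (ENSG00000264701) at 6614 bp and that of CDK5RAP3, the nearest protein-coding gene, at 21703 bp. The assignment to NFE2L1 thus rests on the 50 kb window alone. Its full ARE, at 46080156 to 46080164 on the minus strand, lay 16 bp from the centre and is the only full ARE within 50 kb of NFE2L1. The 101 bases around it (46080110 to 46080210, minus strand) are given for comparison with the promoter sequence above.
NFE2L1 upstream peak: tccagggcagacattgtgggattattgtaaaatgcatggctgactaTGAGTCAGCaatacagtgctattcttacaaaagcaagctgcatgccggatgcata

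NFE2L2, which encodes NRF2, had 1 peak within 50 kb, and it was at the start. The gene lies on the minus strand of chromosome 2. The peak (chr2:178128341-178129122) scored 449.59, and its centre lay 138 bp downstream of the TSS of NFE2L2-202 and 724 bp downstream of the canonical TSS, in intron 1 of the canonical transcript. By the score of its best promoter peak NFE2L2 ranked 73rd of the 1215 protein-coding genes with one, whose median was 99.46. The peak held 7 AREs of any form. The median peak held 1, and 22 peaks (0.388% of those searched) held 7 or more. None of the 7 was within 1 base of a full ARE. Of the sites with 2 differences, the one nearest to the centre was TGACTTCGC, 66 bp away (C6T and A7C against the full ARE, counted from the 5′ base of the ARE). It overlapped an annotated UTR. The sequence of the peak was 73.5% G and C, against a median of 45.3% over all peaks and 52.3% over those within 2 kb of a TSS. AREs of any form allow 3 free bases, and the part of base composition in the count of 7 was not tested.

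The nearest full ARE to an NFE2L2 TSS was not in a peak. It lay 544 bp from an alternative TSS, 49651 bp upstream of the canonical one, 50375 bp from the nearest peak centre. In all, 4 full AREs lay within 50 kb of the start sites of NFE2L2 and 0 of them were in a peak.

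NFE2L3, which encodes NRF3, had a weak peak inside the gene. The gene spans chr7:26191818-26226757, plus strand. The peak (chr7:26223271-26223804) scored 66.71, rank 4187. Its centre lay 143 bp before the start of NFE2L3-202, a retained-intron transcript, but 31719 bp downstream of the canonical TSS, in intron 3. Its place among the peaks near a TSS depends on that transcript, and with the TSSs of protein-coding transcripts alone it was no longer counted within 2 kb. The peak held 1 ARE, TGACACAGC (T5A), 45 bp from the centre, which differs from a full ARE by 1 base. This 9-base site occurred in 287 of the peaks searched (5.06%), 88 of them within 2 kb of a TSS. Among the 7 full AREs within 50 kb of NFE2L3, 0 lay in a peak, although one of them (26221288 to 26221296) was 2245 bp from the centre of this peak.

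NFE2 (chr12:54685895-54694799, minus strand) was the only one of the 7 without a peak within 50 kb. The nearest peak (chr12:54613724-54614236) scored 141.71 (rank 1585), lay 80819 bp downstream of the canonical TSS and held 0 full AREs and 2 of any form. The start of the microRNA gene MIR3198-2 was closer to it, at 11280 bp. NFE2 had 1 full ARE within 50 kb, 12038 bp downstream of its canonical TSS, and it was not in a peak.

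Of the 7 full AREs in peaks, 6 were at the repressor genes, which also had many of the sites searched. Of the 27 full AREs within 50 kb of the 7 genes, 8 were at BACH1 and 6 at BACH2. At BACH1 4 of the 8 lay in a peak, and at BACH2 2 of the 6 did. Near all protein-coding genes the share in a peak was 8.99%. BACH1, on the plus strand of chromosome 21, had 3 peaks within 50 kb of a TSS, and all 3 held a full ARE. The one at the canonical promoter (chr21:30672355-30672885) scored 78.15 (rank 3498) and its centre lay 166 bp downstream of the TSS of BACH1-206 and 1377 bp downstream of the canonical TSS, in intron 1. It held 2 full AREs, 118 bp and 21 bp from the centre, and was the only one of the 5 peaks within 2 kb of a TSS to hold any. The other 2 peaks lay 7605 and 5872 bp upstream of the first TSS, that of BACH1-211, and 112456 and 110723 bp upstream of the canonical TSS. They scored 50.00 (chr21:30558563-30559012, rank 5681), the lowest value in the list, and 63.12 (chr21:30560266-30560775, rank 4453). A long noncoding RNA (ENSG00000224649) started 1329 and 404 bp from their centres. Their full AREs lay 15 and 51 bp from the centres.

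BACH2 (chr6:90636247-91006562, minus strand) had 3 peaks inside the gene and none within 2 kb of a TSS. The strongest (chr6:90907525-90908023) scored 166.98 and lay in intron 4, 98788 bp downstream of the canonical TSS and 8634 bp from that of BACH2-210. Its full ARE, at 90907753 to 90907761 on the plus strand, lay 17 bp from the centre. Over 15 bases, the ARE and 3 on each side, it was identical to the full ARE of the promoter peak of DGKG (score 534.43, 115 bp from the TSS), the only identical one among the 485 promoter peaks with a full ARE that were compared. IL1R1 (482.29) and ZSCAN31 (411.96) differed by 1 base, and sites with equal differences were taken from the highest score down, so that their scores follow in part from that order. The comparison covered promoter peaks only. In the whole genome the 15 bases of the BACH2 site occurred 14 times, itself included, and 8 of these were in a peak. The site is shown with 101 bases of its intron (90907707 to 90907807, plus strand).
BACH2 intron 4 peak: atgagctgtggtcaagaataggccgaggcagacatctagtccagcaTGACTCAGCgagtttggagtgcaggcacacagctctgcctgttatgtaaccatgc

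The other 2 BACH2 peaks lay close together in intron 1, 10961 and 11987 bp downstream of the canonical TSS. The first (chr6:90995335-90995868) scored 87.58 and held a full ARE 63 bp from its centre, and the second (chr6:90994348-90994802) scored 52.96 and held no ARE. At 1 bp from the centre of the second lay TGACTCATC (G8T), an AP-1 core that lacks the GC of an ARE and occurred in 301 peaks (5.31%). A full ARE 73 bp upstream of an internal BACH2 TSS and another 1995 bp upstream of one were in no peak.

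KEAP1, the inhibitor of NRF2, had the strongest of the 13 peaks. The gene spans chr19:10596801-10614234, minus strand. The peak (chr19:10613128-10613876) scored 648.88 and stood at rank 61 of 5683. Its centre lay 70 bp downstream of the TSS of KEAP1-202 and 530 bp downstream of the canonical TSS, in intron 1 of the canonical transcript. KEAP1 ranked 36th among the 1215 protein-coding genes with a promoter peak. No full ARE lay within 50 kb of any KEAP1 TSS, in a peak or outside. The peak held 3 AREs of other forms, TGACTAAGC at 28 bp from the centre, TGACACGGC at 5 bp and TGAGCGCGC at 144 bp. The first (10613470 to 10613478, plus strand) differs from a full ARE by C6A alone and overlaps an annotated UTR. It occurred in 130 peaks (2.29%), 37 of them within 2 kb of a TSS.

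Peaks without a full ARE were as a rule weaker, with a median score of 78.62 over 2195 peaks, against 103.43 for those with one. The KEAP1 peak was the 19th highest of these 2195, and 18 of the first 19 lay within 2 kb of a TSS. NFE2L2 was the 46th, with 40 of the first 46 within 2 kb, and the NFE2L1 promoter peak was the 177th. G and C made up 75.2% of the KEAP1 peak and 60.6% of the NFE2L1 promoter peak, both above the median of 52.3% for peaks near a TSS.

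The other 2 peaks counted for KEAP1, with scores of 73.99 (chr19:10652069-10652443) and 68.31 (chr19:10654020-10654513), lay 38022 and 40032 bp upstream of its nearest TSS. Their centres were 2315 and 305 bp from a TSS of ATG4D, which encodes an autophagy protease, so KEAP1 was not the nearest gene. Each held 1 ARE with 2 or more differences from a full ARE.

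**Figure D3:**
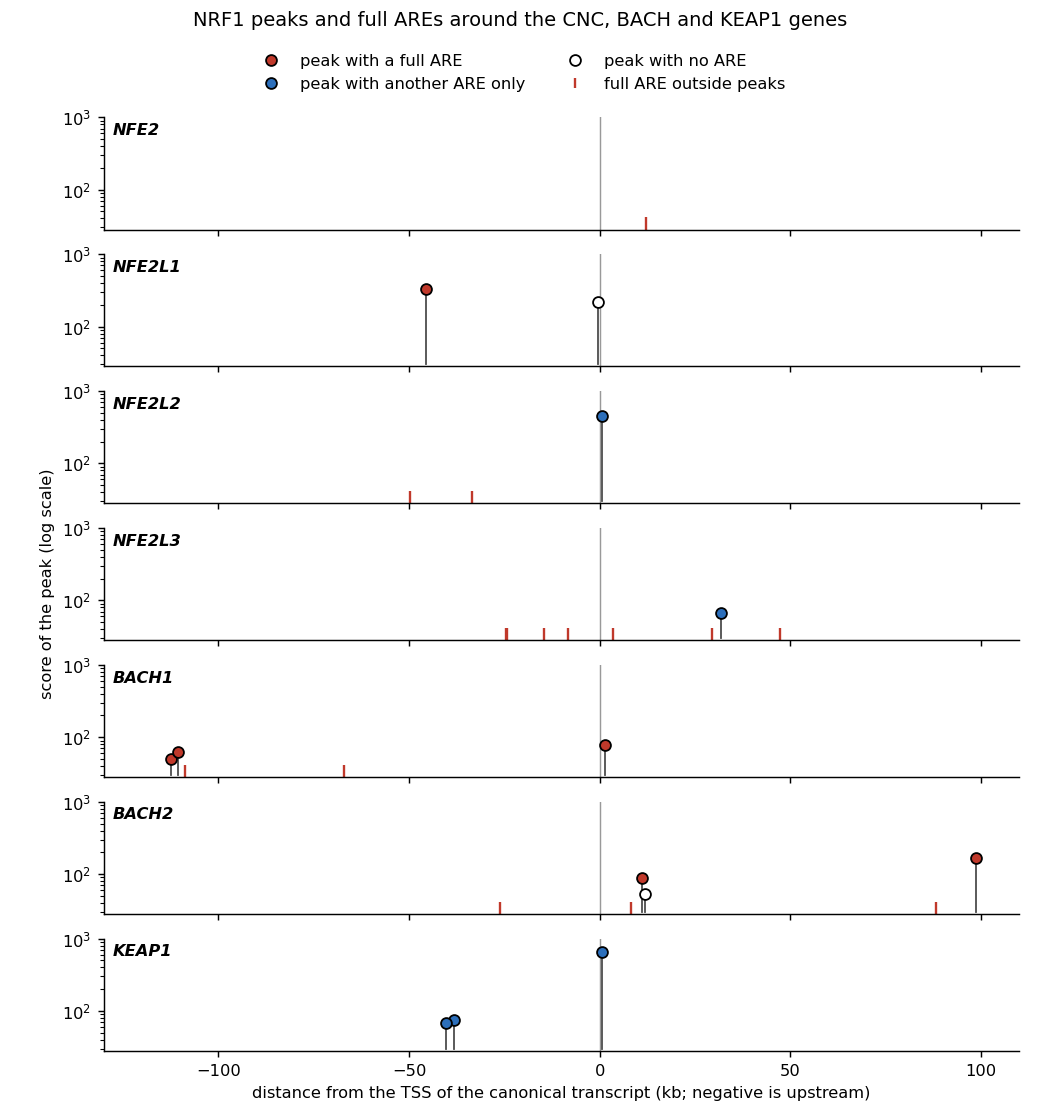
Peaks at the 7 genes by the distance of their centre from the canonical TSS (kb, negative is upstream) and their score (log scale), coloured by ARE form (red, full ARE; blue, another ARE only; white, none). Red ticks are full AREs outside peaks, and 5 of them more than 130 kb upstream or 110 kb downstream are not drawn. Only peaks and full AREs within 50 kb of a TSS of the gene are drawn, so an empty stretch may hold others. NFE2 has no peak within 50 kb, and its nearest, 80819 bp downstream, is not drawn. KEAP1 and NFE2L2 have their highest peaks at the TSS with no full ARE, and the BACH peaks with full AREs are lower.

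Across the 13 peaks, 6 held a full ARE and 11 an ARE of any form. Over all peaks searched the shares were 61.3% (60.0 to 62.6%) and 87.4% (86.5 to 88.2%). Of the peaks within 2 kb of any TSS 47.6% (45.1 to 50.1%) held a full ARE, against 1 of 5 here, and of those farther away 66.4% (64.9 to 67.8%) did, against 5 of 8 here. With 13 peaks, counts this close to the background are no result about these genes. The 7 full AREs lay 15 to 118 bp from the centre, with a median of 21 bp. TGAGTCAGC made up 5 of them and TGACTCAGC 2, and 3 lay on the strand of the gene.

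**Figure D4:**
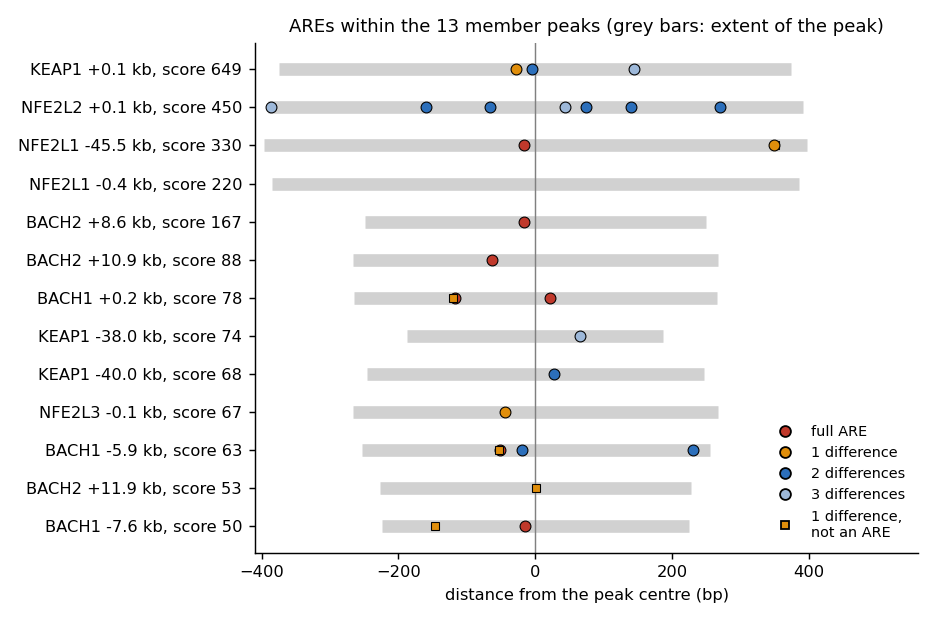
Positions of AREs in the 13 peaks relative to the peak centre (bp), with peaks (grey bars) ordered by score and labelled by gene, distance to its nearest TSS and score. Colours give the number of bases that differ from a full ARE, and squares are sites with 1 difference that are not AREs. Full AREs (red) lie at most 118 bp from the centre, and none is in the KEAP1, NFE2L2 or NFE2L1 promoter peaks.

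Most full AREs near these genes were not in a peak. Of 27 within 50 kb of a TSS, 7 overlapped a peak, 4 at BACH1, 2 at BACH2 and 1 at NFE2L1, and 20 did not. Near all protein-coding genes 8.99% (8.67 to 9.33%) of 29552 full AREs overlapped a peak. The sequences of the sites differed beyond the 9 bases. The split by neighbouring bases was chosen after these sites had been seen, so the counts at these genes are a description only. Among the 7 sites in a peak, 4 had an A directly before and directly after the ARE, and among the 20 outside 2 did. Read the other way, 4 of 6 sites with A on both sides were in a peak and 3 of 21 others were. Near all protein-coding genes the shares were 42.2% (40.4 to 44.1%) of 2767 sites with A on both sides and 5.56% (5.29 to 5.84%) of 26785 others. The sites below, all outside peaks, show the contrast: the first 3 lack A on one or both sides and the last 2 have it on both.
NFE2, downstream: gtaattctccTGACTCAGCctccagagta
NFE2L2, alternative start: aaactaaactTGAGTCAGCaatgtagggc
BACH2, internal start: acagctgtggTGACTCAGCctttctttct
NFE2L3, near a peak: taaatagccaTGAGTCAGCatatgcaaaa
BACH2, upstream: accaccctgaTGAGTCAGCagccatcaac

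**Figure D5:**
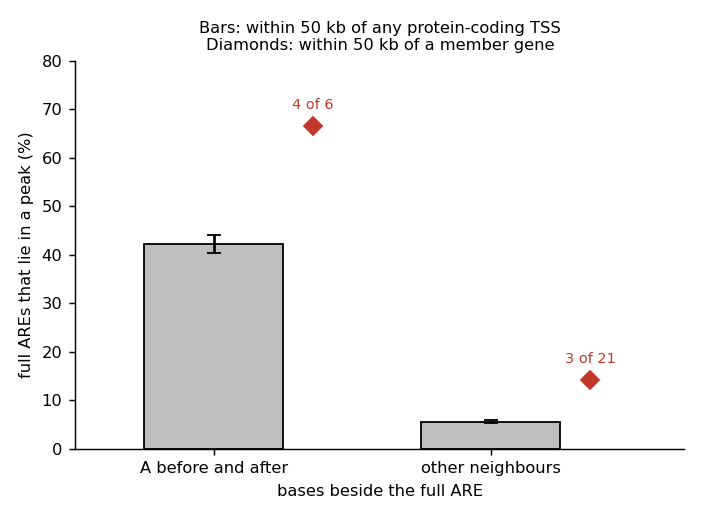
Share of full AREs that overlap a peak (%), by the bases beside the ARE, for sites within 50 kb of any protein-coding TSS (bars, with 95% Wilson intervals) and for those near the 7 genes (red diamonds, with counts). The bars stand at 42.2% with A before and after and at 5.56% otherwise, and the diamonds at 4 of 6 and 3 of 21. The split was chosen after the sites near the 7 genes had been seen.

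The same neighbours occurred in some of the peaks without a full ARE. This count of neighbouring bases, too, was chosen after the sites had been seen. An ARE with A on both sides was found in 4 of these 7 peaks, at 3 genes. It was 1 of the 3 AREs in the KEAP1 promoter peak (TGACTAAGC), 1 of the 7 in the NFE2L2 peak (TGACTTCGC), and the only ARE in the NFE2L3 peak and in a KEAP1 peak near ATG4D (aactgcatgaTGACAATGCagtgaccctg, 65 bp from the centre). The other AREs of the KEAP1 promoter and NFE2L2 peaks had other neighbours. Over all 2195 peaks without a full ARE this share was 29.4% (27.6 to 31.4%), and in windows of the same width 2 kb to their right it was 2.87% (2.25 to 3.66%). The AP-1 core of the weakest BACH2 peak also stood between 2 A bases.

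Some of the sites outside peaks were repeated sequence. For 8 of the 20 sites outside peaks, the 15 bases around the ARE occurred at least 100 times in the genome, and for 0 of the 7 in peaks, which had 2 to 15 copies. Those 15 bases of the NFE2 site occurred 3319 times, of which 6 were in a peak, and one NFE2L3 and 2 BACH1 sites had the same 15 bases. The 15 bases of a BACH2 site occurred 755 times and those of an NFE2L2 site 189 times, with 0 in a peak for each. Those shared by another NFE2L3 and another BACH1 site occurred 173 times, with 2 in a peak. Of all 51459 full AREs in the genome 7.48% overlapped a peak, and of the 7417 with at least 100 copies 4.56% did. The part of the copy number in these counts was not tested.

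Among the genes that act with this family, MAFG and VCP had the highest peaks within 2 kb of a TSS. A list of 16 such genes was searched in the same way. A peak within 2 kb of a TSS was found at 6 of them, against the 6.03% of protein-coding genes given above. Within 50 kb the count was 10, against 32.7% of protein-coding genes. The list was chosen with earlier results of these data known, so these counts are a description only. MAFG, a small MAF partner of all the CNC and BACH factors, had a peak of 1022.83 (rank 9) 93 bp upstream of a TSS and another of 528.72 (rank 104), both with a full ARE. The other small MAF genes had none within 2 kb, the nearest being 3361 bp from MAFK and 18939 bp from MAFF. VCP, the p97 ATPase that extracts NRF1 from the endoplasmic reticulum, had a peak of 730.46 (rank 34), and NGLY1, the N-glycanase that processes NRF1, one of 95.47. DDI2, the protease that cleaves NRF1, had its nearest peak 241536 bp away, and SYVN1, a ubiquitin ligase of the endoplasmic reticulum, 16270 bp away.

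On the side of KEAP1 and NRF2, SQSTM1, whose product p62 binds KEAP1, had peaks of 616.46 and 593.29 (ranks 73 and 83). DPP3, another KEAP1 binder, had a peak of 59.17 at 2 bp from a TSS, and GSK3B, a kinase that marks NRF2 for turnover, one of 78.49. The ligase genes CUL3 and RBX1 had their nearest peaks at 22232 and 94757 bp. PGAM5, BTRC, FBXO22 and FBXL17 had none within 50 kb. Of the best promoter peaks of these 6 genes, those of MAFG and SQSTM1 held a full ARE, and those of VCP, NGLY1, GSK3B and DPP3 held other AREs only.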

How the data were processed

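NRF1 ChIP from HCT116 cells kept in MG132 (1 µM, 16 h) gave 1 library, which was read from a single end. The authors mapped the reads to hg19 with Bowtie2 2.2.6 and called peaks with MACS 1.4.2, as their methods and processing notes state. The deposited list holds coordinates and a score for every peak. MACS computes this score as −log10 of the p-value multiplied by 10, and the lowest value was 50.00. Settings of the peak caller, removal of duplicate reads and use of the input library are not given in the sources used here. The sequencing depth is unknown.

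Starts were converted to count from 1. TSSs, transcripts and introns were taken from GENCODE 44 on the same build, and peak sequences from that genome. Distances run from the peak centre to a TSS, and ranks are by score. AREs were searched on both strands, with the search and distances tested on simulated data. Backgrounds are all protein-coding genes, peaks or AREs, with 95% Wilson intervals. The members and lists were chosen with earlier results of these data known. Named genes are the 7 members, genes of the pathway list, up to 3 genes with the most similar ARE, and genes nearest to a peak. Counts of neighbouring bases and of repeated sequences were chosen after the sites had been seen. PGAM5, BTRC and the other pathway genes without a promoter peak are named to account for the list. Array data were not used. Python 3.11.15, numpy 2.4.6, pandas 2.3.3, scipy 1.17.1, pysam 0.24.0 and matplotlib 3.10.9 were used.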

Additional observations from a re-analysis of the deposited data

How the results depend on the processing

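With a score of at least 100 in place of the threshold of the authors, 3 of the 7 genes (KEAP1, NFE2L2 and NFE2L1) had a peak within 2 kb in place of 5, 5 peaks lay within 50 kb in place of 13, 2 of these held a full ARE in place of 6, and 2 full AREs lay in a peak in place of 7. With the canonical TSS alone, 3 peaks with a full ARE remained within 50 kb, since the upstream BACH1 peaks and the BACH2 peak in intron 4 lay farther away. With an ARE of any form, 11 peaks counted. The other 19 of 25 alternatives changed a count by less than 1.5 times. No paired analysis was possible because 1 library was analysed. A peak that falls below the threshold of the authors is not in the list, so a gene without a peak is not shown to lack NRF1, and the rank of a peak has no replicate error.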
